A study of Mus musculus with 8 samples.

Results

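The MHC class I antigen presentation machinery is described here through 10 genes, chosen by name: H2-K1, H2-D1, B2m, Tap1, Tap2, Tapbp, Psmb8, Psmb9, Psmb10 and Nlrc5. All 10 were found by symbol among the 25006 gene identifiers of the counts, and all 10 passed the filter on low counts, which kept 15310 genes. RNA was sequenced from 8 tumors or tumor pools of the mouse 4T1 line, a mammary carcinoma line from a Balb/c mouse used to model triple-negative breast cancer, with 1 library for each of 4 derivatives in each of 2 hosts. The derivatives were 2 lines wild type for CD95, the parental line and a line with stable vCas9, and 2 lines in which CD95, the death receptor encoded by Fas, was knocked out with CRISPR/Cas9, namely clones 54 and 69. They were grown in the fat pad of NSG mice, which have no mature T, B or NK cells, or of Balb/c mice, whose immune system is intact, and tumors were taken at up to 20 days. The ages of the mice, and whether a library held 1 tumor or several, are not given in the sources used here.

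This gave 4 groups of 2 libraries, wild type and knockout in each host. Both knockout lines are clones, which the labels do not say of the wild-type lines, so that clone selection and loss of CD95 cannot be told apart. The libraries of a group come from different lines, so the spread between them includes differences between lines. Each library holds RNA of the tumor cells and of the host cells in the tumor, and nearly all nucleated cells can express these genes. In such bulk samples, fewer cells of a type and less RNA per cell cannot be told apart.

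Class I molecules show peptides of a cell's own proteins to CD8 T cells. Proteasomes cut the proteins, and in the immunoproteasome the subunits encoded by Psmb8, Psmb9 and Psmb10 take the place of the constitutive catalytic subunits encoded by Psmb5, Psmb6 and Psmb7. The transporter made of TAP1 and TAP2 carries the peptides into the endoplasmic reticulum, where tapasin, encoded by Tapbp, holds the transporter and the empty class I molecule together during loading. The heavy chains encoded by H2-K1 and H2-D1 pair with the light chain, beta-2-microglobulin, encoded by B2m. NLRC5 is a transactivator that acts at class I promoters, and interferon gamma, a product of activated T and NK cells, is a known inducer of these genes. Tumors that lose class I from their surface can escape CD8 T cells and become exposed to NK cells.

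In the GENCODE M21 annotation of GRCm38, 7 of the 10 genes lie on chromosome 17, where the MHC is found. H2-K1 is at chr17:33996017-34000347 on the minus strand and H2-D1 at chr17:35262730-35267499 on the plus strand. Psmb9 (chr17:34181987-34187764, minus), Tap1 (chr17:34187553-34197225, plus), Psmb8 (chr17:34197721-34201454, plus) and Tap2 (chr17:34203527-34216321, plus) are immediate neighbours, and Tapbp is at chr17:33915899-33929292. Psmb10 (chr8:105935735-105938444) and Nlrc5 (chr8:94434356-94527272) are on chromosome 8, and B2m (chr2:122147686-122153083) is on chromosome 2.

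RefSeq promoter windows on GRCm38.p6, which run from 250 bases before to 50 bases after each start, held 8 of the 10 genes. Tap2 and Nlrc5 were not among them. The windows of both heavy chains, the light chain, Psmb8 and Tap1 are printed as examples: the class I chains for the motif letters they share, Psmb8 for its gamma-activated-site letters and Tap1 for its overlap with the window of Psmb9. Capitals mark the motifs searched on both strands, each written from 5' to 3' in the direction of the gene.

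H2-K1: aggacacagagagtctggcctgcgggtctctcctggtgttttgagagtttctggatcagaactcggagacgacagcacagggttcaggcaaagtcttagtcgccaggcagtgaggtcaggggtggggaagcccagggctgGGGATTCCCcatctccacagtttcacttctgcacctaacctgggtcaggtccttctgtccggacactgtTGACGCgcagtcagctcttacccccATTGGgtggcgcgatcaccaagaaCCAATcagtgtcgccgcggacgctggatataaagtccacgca
H2-D1: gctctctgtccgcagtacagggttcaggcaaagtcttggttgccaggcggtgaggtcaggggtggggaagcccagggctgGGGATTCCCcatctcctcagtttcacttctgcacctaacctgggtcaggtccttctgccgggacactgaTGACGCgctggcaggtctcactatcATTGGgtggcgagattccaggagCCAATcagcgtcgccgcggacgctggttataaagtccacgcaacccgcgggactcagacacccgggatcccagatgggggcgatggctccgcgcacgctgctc
B2m: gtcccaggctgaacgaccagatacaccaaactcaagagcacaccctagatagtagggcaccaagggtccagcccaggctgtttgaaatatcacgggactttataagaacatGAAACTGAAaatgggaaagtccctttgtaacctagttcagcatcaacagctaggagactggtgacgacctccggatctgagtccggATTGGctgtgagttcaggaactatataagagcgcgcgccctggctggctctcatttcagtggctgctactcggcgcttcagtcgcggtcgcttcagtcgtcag
Psmb8: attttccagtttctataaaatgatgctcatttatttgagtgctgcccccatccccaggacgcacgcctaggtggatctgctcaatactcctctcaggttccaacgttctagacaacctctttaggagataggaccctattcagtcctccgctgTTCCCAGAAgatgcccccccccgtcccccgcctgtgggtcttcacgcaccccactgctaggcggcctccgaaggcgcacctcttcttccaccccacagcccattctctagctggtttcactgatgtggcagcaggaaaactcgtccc
Tap1: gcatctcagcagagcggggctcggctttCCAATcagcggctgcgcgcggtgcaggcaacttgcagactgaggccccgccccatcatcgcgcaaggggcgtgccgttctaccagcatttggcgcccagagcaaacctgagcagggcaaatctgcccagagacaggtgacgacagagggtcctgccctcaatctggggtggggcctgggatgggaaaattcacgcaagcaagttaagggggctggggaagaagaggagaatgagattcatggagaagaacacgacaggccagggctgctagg

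The windows are chr17:34000298-34000597 (minus) for H2-K1, for which the table holds 2 starts and the first is shown, chr17:35262844-35263143 (plus) for H2-D1, chr2:122147437-122147736 (plus) for B2m, chr17:34197945-34198244 (plus) for Psmb8 and chr17:34187306-34187605 (plus) for Tap1. The start sites of Tap1 and Psmb9 lie 226 bases apart on opposite strands, and their windows share 275 bases. The letters GGGATTCCC, an NF-kB-like site of class I enhancer A, were found in H2-K1 at position -110 from the start and in H2-D1 at position -170, and in 0.353% of the 32817 promoter windows of the same length. TGACGC, an X2-like box, was found in the same pair at positions -41 and -101, and in 7.39% of all windows. ATTGG, the letters of a Y box, was present in 6 of the 8 members and in 37.4% of all windows. The matches in Tap1 (-222) and Psmb9 (-8) are the same bases, read from opposite strands. GAAANNGAA, the core of an interferon-stimulated response element, was found in B2m at position -139 and in 8.55% of all windows, and TTCNNNGAA, the letters of a gamma-activated site, in Psmb8 at position -97 and in 8.29%. No 2 of the motifs overlapped. A match describes letters in these windows and shows no binding.

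Library totals ranged from 8.68 M to 19.7 M counts, with the lowest pair in NSG knockout tumors, and 3 counts corresponded to between 0.159 and 0.321 CPM. CPM is the count relative to a library total that was scaled by TMM, edgeR's correction for composition. Fas was read in every library, at 33.9 and 22.6 CPM in NSG wild type and 29.5 and 12.9 CPM in NSG knockout. In Balb/c it was at 51.6 and 46.9 CPM in wild type and 27.1 and 33.7 CPM in knockout. The knockout log2 fold changes of Fas were -0.42 in NSG (SE 0.37, edgeR adjusted p = 0.628) and -0.70 in Balb/c (SE 0.36, adjusted p = 0.225), so the knockout status rests on the labels. Of all genes tested, 48.6% of those called in wild-type tumors were higher in Balb/c, 36.5% with total counts and 57.9% with RLE size factors, a second composition correction. For knockout tumors the shares were 50.5% and, with total counts, 37.3%. The shift of the median log2 difference over all genes was from -0.08 to -0.24 in wild-type tumors and from 0.02 to -0.17 in knockout tumors under total counts, and the 10 members stayed higher in Balb/c under every scaling.

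Per kilobase of exon, B2m had the highest mean level in every group, from 1075 CPM per kb in NSG knockout to 3136 CPM per kb in Balb/c knockout tumors. H2-D1 came next, with 367 to 1093 CPM per kb, followed by H2-K1 with 123 to 516 and Tapbp with 47.3 to 132 CPM per kb. The lowest 3 members in NSG wild-type tumors were Nlrc5 at 7.63, Tap1 at 6.80 and Psmb9 at 4.77 CPM per kb. The members of the class I complex itself were thus read at far higher levels per length than the transporter subunits or NLRC5. Lengths cover every annotated exon of a gene, so these levels are only an order between genes.

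The first question was how the machinery differed when the same lines grew in Balb/c rather than NSG mice. The hosts are different strains and the tumor line comes from a Balb/c mouse, so strain and immune status cannot be told apart. All 10 members had positive log2 differences between Balb/c and NSG in wild-type and in knockout tumors. In wild-type tumors 8 of the 10 rose in Balb/c and B2m and Psmb10 did not pass the test, against a background of 15.3% of all tested genes called higher and 31.5% called in either direction (edgeR, adjusted p under 0.05). In knockout tumors all 10 rose, against 15.7% called higher and 31.1% in either direction. The libraries of the hosts did not overlap for 9 members in wild-type and 10 in knockout tumors, where 35.4% and 32.4% of all genes were separated in that direction. The median log2 difference of the members was 1.16 in wild-type and 1.60 in knockout tumors, where the medians over all tested genes were -0.08 and 0.02. Summed over the 10 genes, the level was 2330 to 3202 CPM over the 4 NSG libraries and 5005 to 9640 CPM over the 4 Balb/c ones. The NSG libraries enter the host comparisons and also the knockout comparisons, so these are not separate pieces of evidence.

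**Figure D1:**
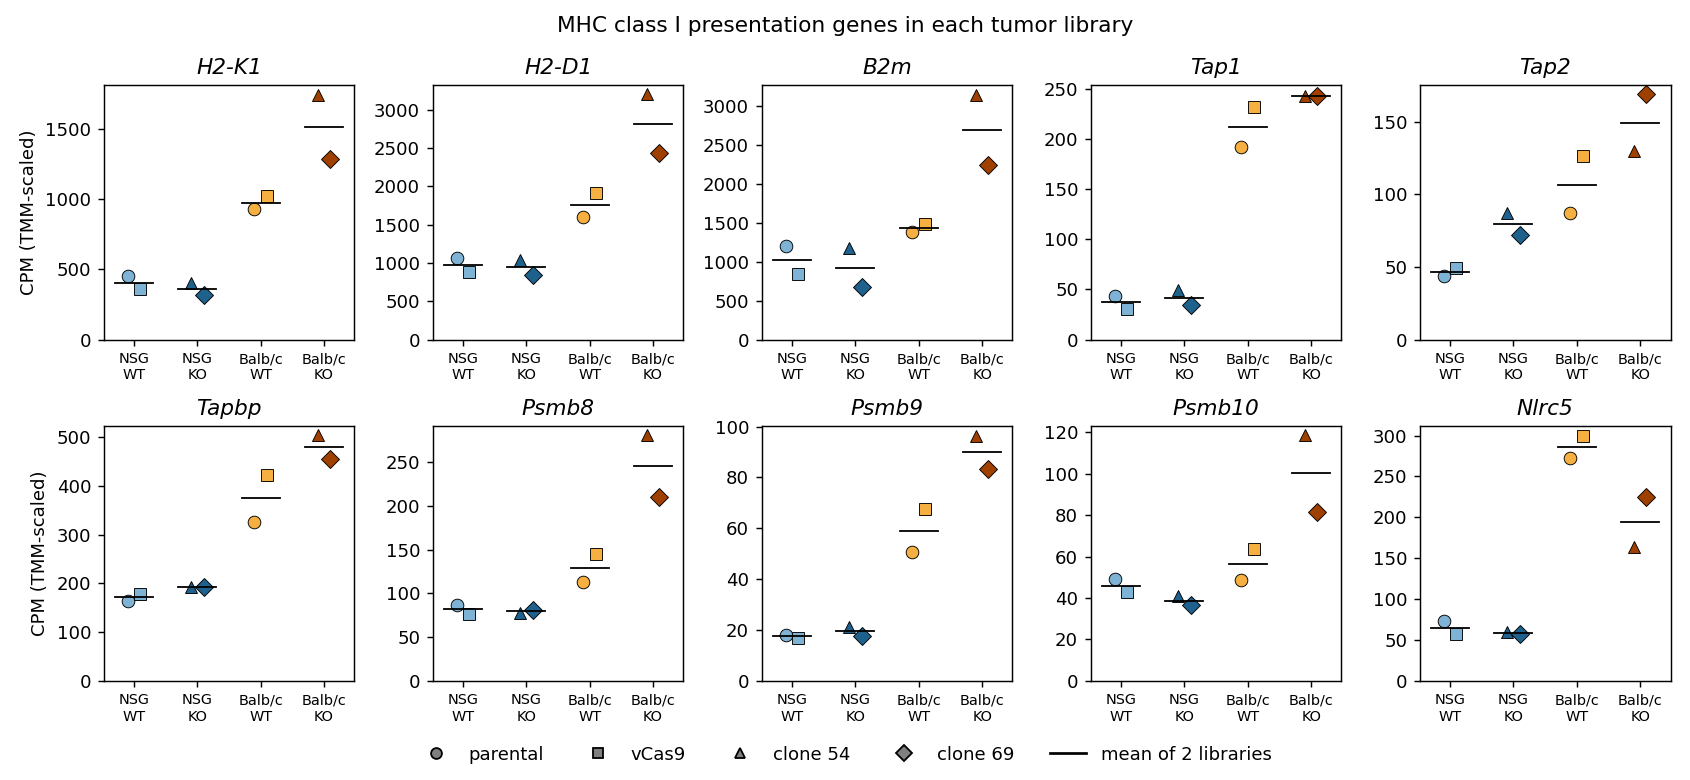
Level of each member in each library, in TMM-scaled CPM on a linear axis that starts at 0 and is scaled for each gene. Symbols give the line, colours the group and bars the mean of 2 libraries; 9 genes were lowest in NSG and highest in Balb/c knockout tumors, while Nlrc5 was highest in Balb/c wild-type tumors.

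The heavy chain gene H2-K1 was at 453 CPM (parental) and 360 CPM (vCas9) in NSG wild-type and at 407 CPM (clone 54) and 314 CPM (clone 69) in NSG knockout tumors. In Balb/c it was at 928 and 1025 CPM in wild-type and at 1744 and 1287 CPM in knockout tumors, in the same order of lines. Every Balb/c library was above every NSG library. The host difference was 2.40-fold in wild-type (log2 1.26, SE 0.26, edgeR adjusted p = 0.011) and 4.21-fold in knockout tumors (log2 2.07, SE 0.26, adjusted p = 0.00142).

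H2-D1, the other classical heavy chain gene, was at 1062 and 875 CPM in NSG wild-type, 1044 and 848 CPM in NSG knockout, 1603 and 1911 CPM for Balb/c wild-type and 3206 and 2431 CPM in Balb/c knockout tumors. The hosts did not overlap here either, and clone 54 in Balb/c was the highest library. The gene rose by 0.86 on the log2 scale with the Balb/c host in wild-type tumors (SE 0.26, edgeR adjusted p = 0.0407) and by 1.58 in knockout tumors (SE 0.27, adjusted p = 0.00417). The wild-type call was lost with the cell line as a block (adjusted p = 0.104) and with total-count scaling (0.70, adjusted p = 0.0539).

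The light chain gene B2m was at 1209 and 838 CPM in NSG wild-type, 1172 and 677 CPM in NSG knockout, 1382 and 1483 CPM for Balb/c wild-type and 3151 and 2243 CPM in Balb/c knockout tumors. Its wild-type Balb/c libraries were only just above the parental NSG library, and the knockout Balb/c libraries were far above all others. The host log2 difference was 0.49 in wild-type tumors (SE 0.34, edgeR adjusted p = 0.295) and 1.54 in knockout tumors (SE 0.35, adjusted p = 0.0131). The wild-type value was 0.77 without the parental and 0.23 without the vCas9 NSG library. Whether that difference of differences passed a test is given with the host dependence of the knockout effect.

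Tap1, a transporter subunit, had the largest host difference of the 10 genes by edgeR in both genotypes. It was at 43.8 and 30.6 CPM in NSG wild-type and 49.0 and 34.4 CPM in NSG knockout tumors. In Balb/c it was at 192 and 232 CPM in wild-type and 243 and 242 CPM in knockout tumors. The Balb/c libraries were 5.69-fold higher in wild-type (log2 2.51, SE 0.25, edgeR adjusted p = 0.0011) and 5.82-fold higher in knockout tumors (log2 2.54, SE 0.25, adjusted p = 0.00061). The 2 knockout clones in Balb/c had nearly the same level, unlike for the heavy and light chains.

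Its partner Tap2 moved less. Tap2 was at 43.8 and 49.5 CPM in NSG wild-type, 86.8 and 71.9 CPM in NSG knockout, 86.8 and 126 CPM for Balb/c wild-type and 130 and 169 CPM in Balb/c knockout tumors. Both NSG knockout libraries were above the NSG wild-type ones, and clone 54 in NSG was at the level of the parental library in Balb/c. Tap2 was 2.29-fold higher in Balb/c wild-type (log2 1.19, SE 0.23, edgeR adjusted p = 0.01) and 1.88-fold higher in Balb/c knockout tumors (log2 0.91, SE 0.23, adjusted p = 0.0208). The knockout call was lost with the cell line as a block (adjusted p = 0.0519).

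The tapasin gene Tapbp was at 164 and 179 CPM in NSG wild-type, 194 and 192 CPM in NSG knockout, 326 and 423 CPM for Balb/c wild-type and 506 and 455 CPM in Balb/c knockout tumors. The hosts were clearly separated. The log2 difference was 1.13 in wild-type (SE 0.19, edgeR adjusted p = 0.00663) and 1.32 in knockout tumors (SE 0.19, adjusted p = 0.0025).

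Of the immunoproteasome subunits, Psmb8 was at 86.6 and 76.7 CPM in NSG wild-type, 77.8 and 81.4 CPM in NSG knockout, 113 and 145 CPM for Balb/c wild-type and 281 and 210 CPM in Balb/c knockout tumors. The 4 NSG libraries lay within 10 CPM of each other, and the Balb/c knockout libraries were above the Balb/c wild-type ones. The host log2 difference was 0.66 in wild-type (SE 0.20, edgeR adjusted p = 0.0411) and 1.63 in knockout tumors (SE 0.21, adjusted p = 0.00146). The wild-type call was lost with the cell line as a block (adjusted p = 0.107) and with total-count scaling (0.51, adjusted p = 0.0976).

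Psmb9 was at 18.1 and 16.8 CPM in NSG wild-type, 21.3 and 17.7 CPM in NSG knockout, 50.7 and 67.5 CPM for Balb/c wild-type and 96.2 and 83.4 CPM in Balb/c knockout tumors. This subunit differed most of the 3 between hosts, by 3.39-fold in wild-type (log2 1.76, SE 0.20, edgeR adjusted p = 0.00177) and 4.61-fold in knockout tumors (log2 2.20, SE 0.20, adjusted p = 0.000492). Psmb10 was at 49.1 and 42.8 CPM in NSG wild-type, 41.1 and 36.5 CPM in NSG knockout, 48.9 and 63.9 CPM for Balb/c wild-type and 119 and 81.8 CPM in Balb/c knockout tumors. It was the single member whose hosts overlapped in wild-type tumors, with a log2 difference of 0.30 (SE 0.23, edgeR adjusted p = 0.335). That value was 0.47 without the parental and 0.16 without the vCas9 Balb/c library, and 0.19 without the vCas9 NSG library. In knockout tumors the difference was 1.37 (SE 0.23, adjusted p = 0.00401).

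The transactivator gene Nlrc5 was at 72.6 and 57.1 CPM in NSG wild-type, 60.2 and 57.4 CPM in NSG knockout, 273 and 299 CPM for Balb/c wild-type and 164 and 225 CPM in Balb/c knockout tumors. Of the 10 members it was the only one with lower levels in Balb/c knockout than in Balb/c wild-type tumors. The host difference was 4.41-fold in wild-type (log2 2.14, SE 0.21, edgeR adjusted p = 0.0011) and 3.30-fold in knockout tumors (log2 1.72, SE 0.21, adjusted p = 0.0013).

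With the cell line as a block, 6 members in place of 8 rose in wild-type tumors and 9 in place of 10 in knockout tumors. The count over all genes fell as well, from 4825 to 2073 and from 4757 to 2878 of 15310. Leaving out 1 library left a group with a single library, which was assumed to vary like the other groups. The wild-type count was then 3 without either NSG wild-type library, 5 without the parental and 4 without the vCas9 Balb/c library, and the knockout count stayed between 8 and 10. Over all genes, those 4 wild-type fits called 858 of 15750 genes without the parental and 1270 of 15883 without the vCas9 NSG library, and 1289 of 15801 without the parental and 1482 of 15699 without the vCas9 Balb/c library. Tap1, Psmb9 and Nlrc5 passed in wild-type tumors in all 8 of these fits, while H2-K1 lost its call in 4, Tap2 in 3, Tapbp in 2, H2-D1 in 5 and Psmb8 in 6. In knockout tumors B2m lost its call without clone 69 in NSG (adjusted p = 0.0729), and Tap2 without clone 69 in NSG (0.123) or in Balb/c (0.0651). In a fit of the 2 knockout groups alone the adjusted p was 0.0695 for B2m and 0.0593 for Tap2.

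**Figure D2:**
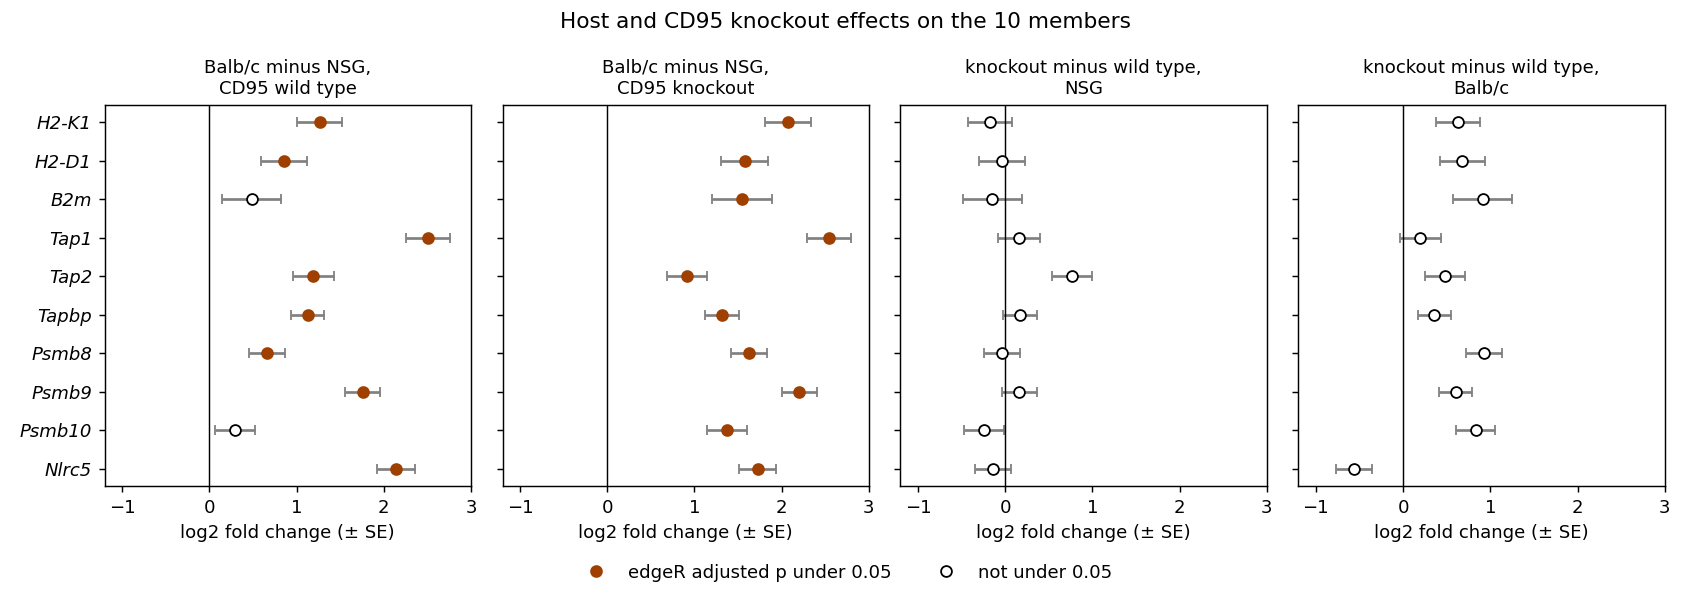
Log2 fold changes of the 10 members with their standard errors, for the host comparison in wild-type and knockout tumors and the knockout comparison in NSG and Balb/c tumors. Filled points passed an edgeR adjusted p under 0.05: 8 and 10 members in the host comparisons and 0 in either knockout comparison.

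Several of these counts may hold reads of other genes. Of the 50-base stretches in the transcripts of H2-K1 and H2-D1, 9.63% and 12.8% also occur in transcripts of other genes. The share was 23.2% for Tapbp, 11.9% for Psmb8 and 11.6% for Tap2, between 0.338% and 4.19% for Psmb9, Tap1 and Nlrc5, and 0% for B2m and Psmb10. Gene models overlap for Tap1 and Psmb9, by 212 bases on opposite strands, for B2m and Patl2, for Tapbp with Zbtb22 and Gm19412, for Tap2 and Psmb8 with Gm20496, for Tap2 with Gm15821, for Psmb10 with Gm16156 over 2710 bases, and for Nlrc5 with 9330175E14Rik and Mir7072. Because the strand setting of the counting is not given in the sources used here, reads of such neighbours cannot be told apart where transcripts overlap. The values of these genes are uncertain to that extent. B2m and Psmb10 shared no 50-base stretch with annotated transcripts of their neighbours on either strand. Reads of unspliced RNA from the neighbours were not examined. Class I alleles of Balb/c and NSG mice may also differ from those of the C57BL/6 reference, and not equally for each gene and host. The part of allele-dependent mapping in the heavy chain values, and in their host differences, was not tested.

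Ratios within a library do not depend on library scaling, so each immunoproteasome subunit was set against the constitutive subunit it replaces, and each heavy chain against the light chain, in counts per kilobase. The ratio of Psmb9 to Psmb6 was 0.0805 and 0.0898 in NSG wild-type, 0.129 and 0.128 in NSG knockout, 0.485 and 0.509 in Balb/c wild-type and 0.400 and 0.418 in Balb/c knockout tumors. The hosts were far apart, with a mean 4.31-fold higher in Balb/c (exact two-sided permutation test of 4 against 4 libraries, p = 0.0286, adjusted over 5 ratios p = 0.0357). The ratio of Psmb8 to Psmb5 was 1.14 to 1.48 in the NSG libraries and 2.81 to 3.63 in the Balb/c libraries, a 2.41-fold difference with the same exact permutation p. Psmb10 to Psmb7 was 1.68 to 1.84 in NSG and 2.04 to 4.76 in Balb/c, a 1.76-fold difference, again with that p. Its adjusted p by the exact permutation test rose to 0.0714 when any 1 of the 4 NSG libraries was left out. Split by genotype, the log2 host difference of Psmb10 to Psmb7 was 0.42 in wild-type and 1.22 in knockout tumors, against 1.20 and 1.33 for Psmb8 to Psmb5 and 2.55 and 1.67 for Psmb9 to Psmb6. All 4 lines had the higher ratio in Balb/c for each of these 3 pairs.

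The ratio of H2-K1 to B2m was 0.102 to 0.136 in the NSG libraries and 0.162 to 0.202 in the Balb/c libraries, 1.54-fold higher in Balb/c in 4 of 4 lines (exact permutation p = 0.0286, adjusted p = 0.0357). H2-D1 to B2m was 0.293 to 0.418 in NSG and 0.339 to 0.430 in Balb/c, and these ranges overlapped. The difference was 1.13-fold, higher in Balb/c in 3 of 4 lines (exact permutation p = 0.257, adjusted p = 0.257). Split by genotype, its log2 host difference was 0.35 in wild-type and -0.0083 in knockout tumors, against 0.76 and 0.49 for H2-K1 to B2m. The smallest p this test allows is 0.0286. With the line as a block, where the smallest possible p is 0.125, none of the 5 ratios could pass.

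**Figure D3:**
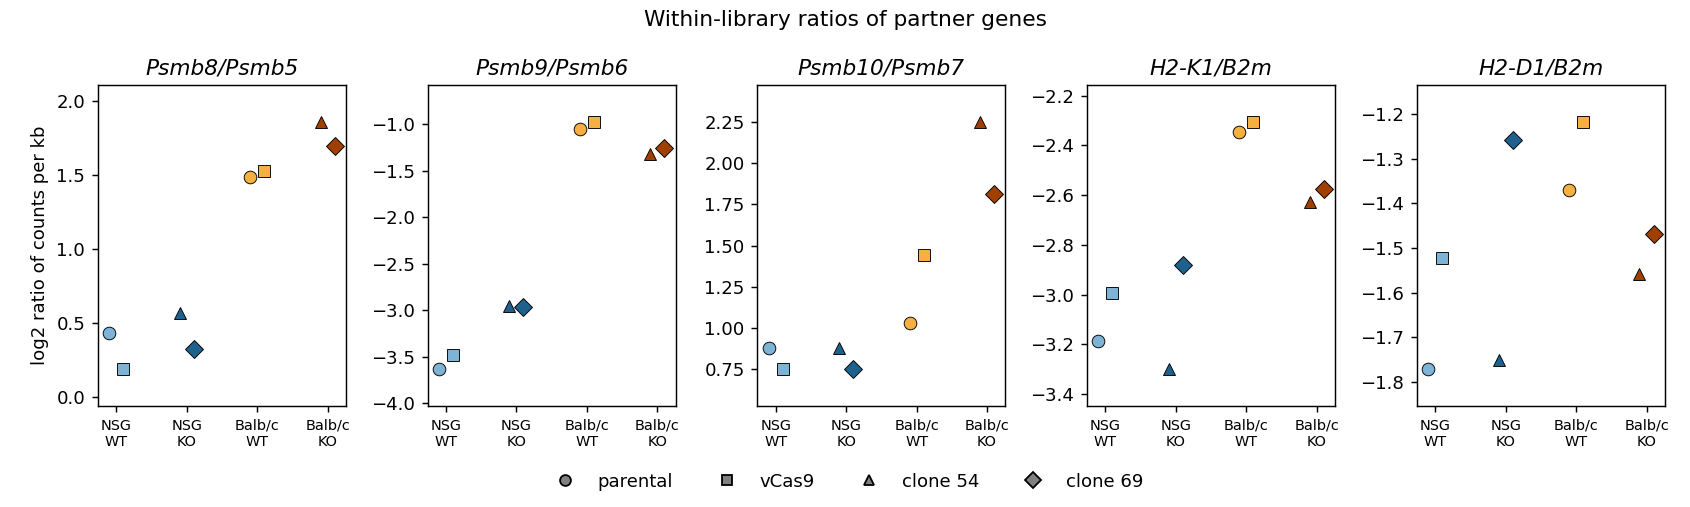
Log2 ratio of counts per kilobase for 5 pairs of genes in each of the 8 libraries, with 1 point per library and the vertical axis scaled for each pair. The 4 Balb/c libraries lie above the 4 NSG libraries for the first 4 pairs, and the hosts overlap for H2-D1/B2m.

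The other genes of the pathway were read from lists drawn up by role. Of 5 partners in peptide loading and trimming, 1 rose and 2 fell with the Balb/c host in wild-type tumors, and 2 rose in knockout tumors. Tapbpl, which encodes a tapasin-related peptide editor, rose by 1.40 on the log2 scale in wild-type (SE 0.20, edgeR adjusted p = 0.00369) and 1.75 in knockout tumors (SE 0.20, adjusted p = 0.000999). Calr, which encodes the chaperone calreticulin, was at 944 and 929 CPM in NSG wild-type and 527 and 531 CPM for Balb/c wild-type tumors and fell by 0.82 on the log2 scale (SE 0.25, edgeR adjusted p = 0.0396). In knockout tumors its host difference was 0.30 (adjusted p = 0.391), and that value was -0.0931 without clone 54 and 0.60 without clone 69 in Balb/c (adjusted p = 0.0473). Canx, which encodes calnexin, fell by 0.76 on the log2 scale in wild-type tumors (SE 0.24, edgeR adjusted p = 0.0455). Both calls of a fall were lost with the block (adjusted p = 0.102 and 0.121), with RLE size factors (adjusted p = 0.0606 and 0.0709), without a filter on low counts (adjusted p = 0.0509 and 0.0672) and in 6 of the 8 fits that left out 1 library. Erap1, the trimming peptidase of the endoplasmic reticulum, rose by 1.36 in knockout tumors (SE 0.19, edgeR adjusted p = 0.0022).

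Of 4 genes of the proteasome activator and of assembly, 0 passed in wild-type and 2 rose in knockout tumors. These were the activator subunit genes Psme1 (log2 0.95, SE 0.21, edgeR adjusted p = 0.0119) and Psme2 (0.99, SE 0.18, adjusted p = 0.00606). The call of Psme1 was lost without clone 69 in NSG (adjusted p = 0.0837) and in a fit of the 2 groups alone (0.0539), which in wild-type tumors gave it 0.48 (adjusted p = 0.0428). With all groups in the fit, the wild-type value of Psme1 was 0.41 (SE 0.21, adjusted p = 0.156). Of the 3 constitutive catalytic subunits, 1 fell in wild-type and 0 passed in knockout tumors. Psmb6 fell by 0.80 on the log2 scale in wild-type tumors (SE 0.20, edgeR adjusted p = 0.0213, 0.0619 with the block, and 0.0624 to 0.141 without any 1 of the 4 wild-type libraries), so that the higher ratio of Psmb9 to Psmb6 there had a higher numerator and a lower denominator. Psmb5 had host log2 differences of -0.54 (adjusted p = 0.093) in wild-type and 0.28 (adjusted p = 0.368) in knockout tumors. The value in knockout tumors ran from 0.12 to 0.44 with 1 library left out.

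Of 15 other class I and class I-like genes tested, 9 rose with the Balb/c host in wild-type and 12 in knockout tumors, and 0 fell in either. In wild-type tumors 4 of the 15 had negative differences, down to -0.58, and none of these passed. H2-T24 rose by 2.99 in wild-type (SE 0.28, edgeR adjusted p = 0.000899) and 2.50 in knockout tumors (SE 0.27, adjusted p = 0.000814). H2-T23, which encodes the Qa-1 molecule that NK cell receptors read, rose by 2.47 (SE 0.29, edgeR adjusted p = 0.00202) and 2.86 (SE 0.30, adjusted p = 0.000694). H2-T22 rose by 1.97 and 2.33 (adjusted p = 0.00177 and 0.000582), and H2-Q1 by 1.62 and 2.01 (adjusted p = 0.00602 and 0.00177, the former 0.0539 without the vCas9 library in NSG). These genes belong to families of related copies, and the sequence they share was not measured, so that their separate values are uncertain. H2-T3 was in the files but did not pass the filter, and H2-L and H2-K2 were not analysed here.

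Of 13 genes of interferon gamma signalling and class I regulation, 8 rose in wild-type and 7 in knockout tumors, and 0 fell. Ifng itself had 0 counts in all 4 NSG libraries. It was at 3.31 and 6.31 CPM for Balb/c wild-type and 17.5 and 12.3 CPM in Balb/c knockout tumors, at least 19.4-fold and at least 46.4-fold higher than in NSG when the NSG groups are set to 3 counts per library. Irf1, an interferon-induced transcription factor, rose by 2.24 in wild-type (SE 0.34, edgeR adjusted p = 0.00448, and 0.0504 without the parental library in NSG) and 2.76 in knockout tumors (SE 0.34, adjusted p = 0.00134). Socs1, a feedback inhibitor of the pathway, rose by 2.69 in knockout tumors (SE 0.29, adjusted p = 0.000792). The RFX genes Rfx5, Rfxap and Rfxank and the NF-Y gene Nfyb, whose products assemble on class I promoters with NLRC5, passed in neither host comparison.

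Of 12 genes that interferon gamma is known to induce, 10 rose in wild-type and 11 in knockout tumors, with median log2 differences of 2.62 and 2.48. The chemokine gene Cxcl9 was between 1.39 and 2.57 CPM in all NSG libraries, 14.0 and 33.7 CPM for Balb/c wild-type and 185 and 53.2 CPM in Balb/c knockout tumors. It rose by 3.64 in wild-type (SE 0.72, edgeR adjusted p = 0.0101) and 5.91 in knockout tumors (SE 0.77, adjusted p = 0.00159). Without either NSG wild-type library the adjusted p of the wild-type value was 0.0726 or 0.0761. The GTPase genes Gbp4 (4.30 and 4.29) and Igtp (3.23 and 3.12) rose in both genotypes, with adjusted p-values from 0.000252 to 0.00106.

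**Figure D4:**
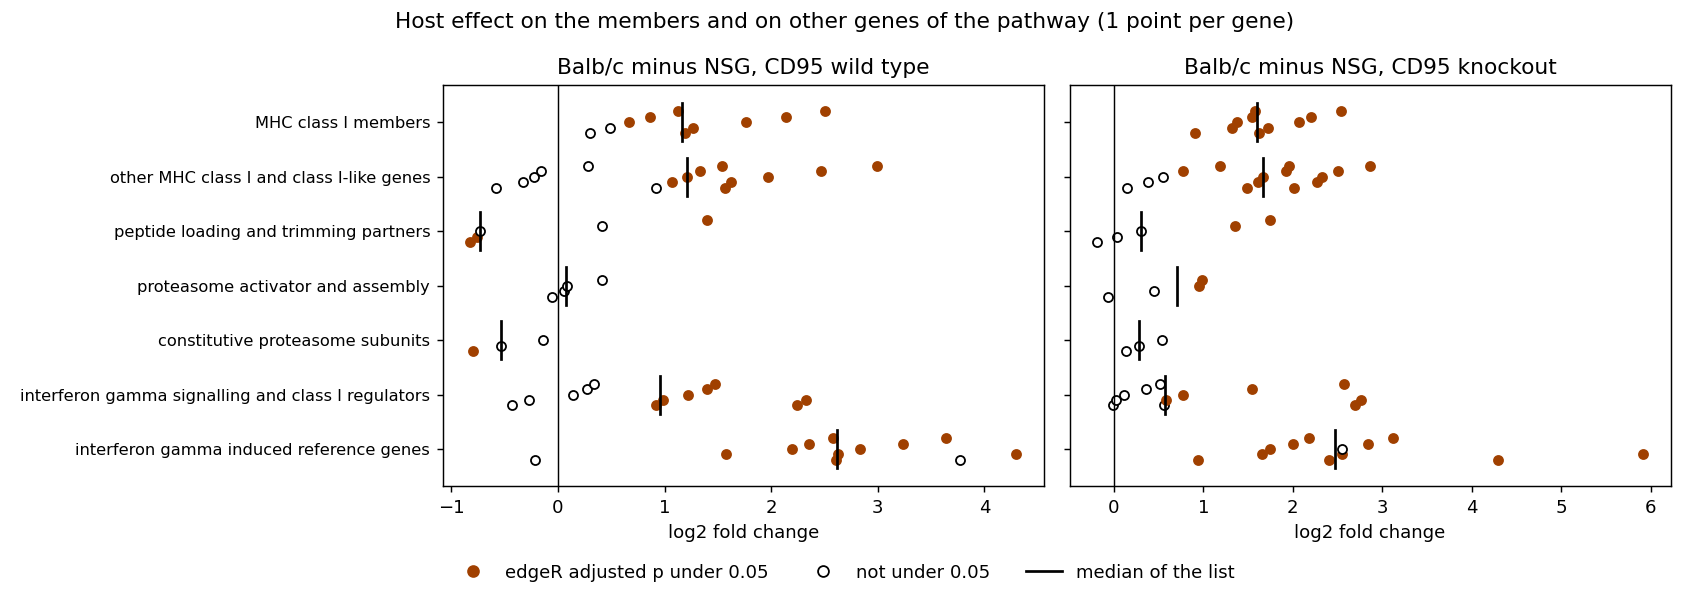
Host log2 fold change of each tested gene in the member list and 6 related lists, with 1 point per gene, filled where the edgeR adjusted p was under 0.05, and a bar at the median of the list. Ifng, with 0 counts in every NSG library, is left out of the points and of its list's bar; most genes of the class I lists lie to the right of 0, and the constitutive subunits lie below 0 in wild-type tumors.

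Markers of immune cells also differed between the hosts, but the median difference of the macrophage and neutrophil markers changed sign with the genotype. All 10 T and NK cell markers rose in both genotypes, with summed levels of 4.92 to 10.2 CPM for NSG and 428 to 542 CPM for Balb/c, and Ncr1 had 0 counts in every NSG library. The 5 leukocyte markers summed to 990 to 1561 CPM in NSG and 3565 to 4403 CPM in Balb/c, with 4 called higher in wild-type and 5 in knockout tumors. Ptprc, which encodes the pan-leukocyte protein CD45, rose by 2.21 (SE 0.25, edgeR adjusted p = 0.00168) and 1.97 (SE 0.25, adjusted p = 0.00134). Dendritic cell markers summed to 79.3 to 136 CPM in NSG and 360 to 494 CPM in Balb/c, with 4 and 5 of 6 called higher. Of 7 macrophage markers, 1 rose and 2 fell in wild-type and 6 rose in knockout tumors. The median log2 host difference of these 7 was -0.63 in wild-type tumors, with 6 negative values, and 1.69 in knockout tumors. Of 5 neutrophil markers 2 rose in wild-type and 1 in knockout tumors. Their median was 2.11 in wild-type and -0.75 in knockout tumors, where 4 of the 5 values were negative and none of those passed. B cell markers rose in 5 of 5 and 2 of 5 cases, with sums of 0.895 to 1.33 CPM in NSG and 6.67 to 160 CPM in Balb/c. Fibroblast markers fell in 1 of 5 and 4 of 5 cases, endothelial markers fell in 2 of 5 and rose in 1 of 5, and 0 of 5 epithelial markers passed in either genotype. The part of these cell types in the class I values was not tested.

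The second question was what loss of CD95 did to the machinery within a host. In NSG tumors 0 of 10 members passed, against 0.0131% of all tested genes, and the median log2 difference of the members was -0.04. The values ran from -0.25 for Psmb10 to 0.77 for Tap2, with 4 positive and 6 negative. Libraries were separated upward for Tap2 and Tapbp and downward for Psmb10, as they were for 26.7% and 25.8% of all genes. Tap2 had an unadjusted p of 0.0112 by edgeR (SE 0.23, adjusted p = 0.256), where 14% of all genes had an unadjusted p under 0.05. Its 2 knockout libraries, at 86.8 and 71.9 CPM, were above the wild-type ones, at 43.8 and 49.5 CPM. For the heavy chains the differences were -0.17 (SE 0.25) for H2-K1 and -0.03 (SE 0.26) for H2-D1, and B2m was at -0.15 (SE 0.34), each with libraries that overlapped between the groups. With 1 library left out, the H2-K1 value ran from -0.38 to -4.7e-05. In the other genes of the pathway 0 passed in NSG. Of the cell type markers 0 passed as well. All 7 macrophage markers had lower values in knockout, with separated libraries and a median of -0.89, and summed to 2996 and 3013 CPM in wild type and 1585 and 2032 CPM in knockout tumors. All 5 epithelial markers had higher values, with separated libraries and a median of 1.28, and summed to 1085 and 1358 CPM against 2710 and 1882 CPM. All 5 fibroblast markers had higher values, 4 with separated libraries, and a median of 0.63. Lower values were found for all 6 dendritic cell markers (4 separated, median -0.64) and all 5 leukocyte markers (2 separated, median -0.38). The T and NK cell, B cell, neutrophil and endothelial lists held values of both signs. The part of these cells in the NSG values of the members was not tested.

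In Balb/c tumors 0 of 10 members passed, against 0.176% of all tested genes. Knockout tumors had higher levels for 9 members and lower levels for Nlrc5, and in all 10 the knockout libraries did not overlap the wild-type ones. Of all genes tested, 32.9% had such separated libraries with higher and 29.3% with lower levels in knockout. By edgeR 7 members had an unadjusted p under 0.05, as did 30.9% of all genes, and the median log2 difference was 0.62, against 0.06 over all genes. The differences were 0.93 for Psmb8 (SE 0.20, edgeR adjusted p = 0.0569), 0.83 for Psmb10 (SE 0.23, adjusted p = 0.0688) and 0.60 for Psmb9 (SE 0.19, adjusted p = 0.0898). For the class I complex they were 0.91 for B2m (SE 0.34, adjusted p = 0.121), 0.68 for H2-D1 (SE 0.26, adjusted p = 0.128) and 0.63 for H2-K1 (SE 0.25, adjusted p = 0.137). The loading genes had the smallest values, with 0.48 for Tap2 (SE 0.23, adjusted p = 0.191), 0.36 for Tapbp (SE 0.19, adjusted p = 0.235) and 0.20 for Tap1 (SE 0.24, adjusted p = 0.595). Nlrc5 had the opposite sign at -0.56 (SE 0.21, adjusted p = 0.117). With 1 library left out, the value of B2m ran from 0.54 to 1.14 and that of Psmb9 from 0.39 to 0.74. Tap2 ran from 0.24 to 0.70, Tapbp from 0.18 to 0.48 and Tap1 from 0.067 to 0.26.

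The clones differed in how far they lay from the wild-type lines. Clone 54 had the higher level in Balb/c for H2-K1, H2-D1, B2m, Tapbp, all 3 immunoproteasome genes and, by under 1 CPM, Tap1, and it had the lower level for Tap2 and Nlrc5. Without clone 69 in Balb/c, 6 members passed, among them Psmb8 (1.13, edgeR adjusted p = 0.00984), Psmb10 (1.08, adjusted p = 0.013) and Nlrc5 (-0.80, adjusted p = 0.029), and the count over all genes then rose from 27 to 3886 of 15697. The median over the members was then 0.78. Without clone 54 the count was 0 members and 1 of 15731 genes, and the median over the members was 0.38, with Psmb8 at 0.60 (edgeR adjusted p = 0.167), Psmb10 at 0.43, H2-D1 at 0.37 and H2-K1 at 0.30. DESeq2 called 2 members, Psmb8 (0.83, adjusted p = 0.0104) and Nlrc5 (-0.66, adjusted p = 0.0472), among 2144 of 15310 genes called. Without a filter on low counts, edgeR called Psmb8 (adjusted p = 0.0287), among 1774 of 20832 genes.

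In the related lists 0 genes passed for the knockout in Balb/c by edgeR. The first analysed gene of each of the 6 lists had a log2 difference of 0.82 for Calr (SE 0.25, adjusted p = 0.0825), 0.71 for Psme1 (SE 0.21, adjusted p = 0.0775), 0.65 for Psmb5 (SE 0.22, adjusted p = 0.0973), 0.43 for H2-Q1 (SE 0.25, adjusted p = 0.279), 1.62 for Ifng (SE 0.43, adjusted p = 0.0763) and 2.32 for Cxcl9 (SE 0.61, adjusted p = 0.0656). With 1 library left out, the value of Psmb5 ran from 0.42 to 0.78 and that of H2-Q1 from 0.20 to 0.63. Without clone 69 in Balb/c, Calr (adjusted p = 0.00887), Psme1 (0.0274), Ifng (0.044) and Cxcl9 (0.00691) passed. Without clone 54 in Balb/c none of these 4 passed, and the values were 0.35 for Calr (edgeR adjusted p = 0.327), 0.42 for Psme1 (adjusted p = 0.319), 1.25 for Ifng (adjusted p = 0.258) and 1.05 for Cxcl9 (adjusted p = 0.275). DESeq2 called Calr (adjusted p = 0.0355), Ifng (0.0327) and Cxcl9 (0.0027), and edgeR without a filter on low counts called Ifng (1.56, adjusted p = 0.0347) and Cxcl9 (2.26, adjusted p = 0.0117).

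Marker levels of several cell types differed between these Balb/c libraries, although 0 genes of the marker lists passed the test by edgeR. The 7 macrophage markers all had higher fitted values in knockout and summed to 2013 and 2351 CPM in wild type, 9729 CPM in clone 54 and 4063 CPM in clone 69. The 5 neutrophil markers all had lower values and summed to 7378 and 5742 CPM in wild type, 518 CPM in clone 54 and 2497 CPM in clone 69. The 5 endothelial markers all had higher values and summed to 172 and 232 CPM in wild type, 446 CPM in clone 54 and 393 CPM in clone 69. The 5 B cell markers all had lower values and summed to 160 and 32.5 CPM in wild type, 6.67 CPM in clone 54 and 10.3 CPM in clone 69. Leukocyte markers summed to 4403 and 3970 CPM in wild type and 3565 and 3964 CPM in knockout, and T and NK cell markers to 428 and 527 CPM against 472 and 542 CPM. The 5 epithelial markers of the tumor line all had higher fitted values in knockout and summed to 706 and 1757 CPM in wild type, 604 CPM in clone 54 and 3243 CPM in clone 69. Of the 5 fibroblast markers 1 had a higher and 4 a lower fitted value, and they summed to 2698 and 2078 CPM in wild type, 2586 CPM in clone 54 and 902 CPM in clone 69. The part of these cell types in the knockout values of the members was not tested.

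The difference between the knockout effects of the 2 hosts was tested as an interaction. For this 0 of 10 members passed, against 0% of all tested genes, and 2 had an unadjusted p under 0.05 by edgeR, where 22.5% of all genes did. These were Psmb10 (log2 1.08, SE 0.32, adjusted p = 0.128) and Psmb8 (0.96, SE 0.29, adjusted p = 0.128). B2m was at 1.06 (SE 0.48, edgeR adjusted p = 0.239), H2-K1 at 0.81 (SE 0.36, adjusted p = 0.228) and H2-D1 at 0.72 (SE 0.37, adjusted p = 0.287). Psmb9 (0.44), Tapbp (0.19) and Tap1 (0.03) had smaller positive values, and Tap2 (-0.28) and Nlrc5 (-0.42, adjusted p = 0.423) negative ones. Over the 8 fits that left out 1 library, the value ran from 0.68 to 1.52 for B2m, from 0.46 to 1.02 for H2-K1, from 0.39 to 0.91 for H2-D1 and from 0.22 to 0.59 for Psmb9. In these 4 genes the lowest value came without clone 54 in Balb/c. The ranges were -0.52 to -0.0640 for Tap2 and -0.65 to -0.24 for Nlrc5. Without clone 69 in Balb/c, Psmb8 (1.17, adjusted p = 0.028) and Psmb10 (1.33, adjusted p = 0.0232) passed, among 2370 of 15697 genes called. Without clone 54 in Balb/c, 0 members and 1 of 15731 genes passed, with Psmb8 at 0.62 (edgeR adjusted p = 0.253) and Psmb10 at 0.66 (adjusted p = 0.259), and the median over the members was 0.30. The larger host differences of B2m and Psmb10 in knockout than in wild-type tumors are therefore not shown to differ between genotypes.

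The members shared the direction of the host difference but followed their mean pattern over the 8 libraries to different degrees. After each log2 level was centred on its own mean, H2-D1 and H2-K1 lay closest to the mean of the 10, with root mean square differences of 0.15 and 0.16, and Tap1 (0.56) and Nlrc5 (0.48) farthest from it. Of 11430 other genes with a mean of at least 5 CPM, those nearest to the members' mean were Tapbpl (0.12), Ltb4r1 (0.15), Batf (0.15), Zfp984 (0.16) and Dusp1 (0.16). Tapbpl, Ltb4r1 and Batf (0.146) were nearer to it than any member, of which H2-D1 was nearest (0.148). These distances describe 8 libraries whose main difference is the host, and carry no test.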

How the data were processed

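RNA was measured by sequencing in 8 libraries. The values deposited by the authors were raw counts per Ensembl gene, 1 library per file. Per the submitters' processing notes, cutadapt 1.13, STAR, HTSeq 0.6.1p1 and DESeq2 were used, and the builds mm10 and hg19 are named without a role. The annotation, strand setting and filters are not given in the sources used here. Groups followed the host and CD95 labels. Nothing says how many animals a library holds, so p-values measure the spread between these libraries.

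Counts were analysed with R 4.3.3 and edgeR 4.0.16 (filterByExpr, TMM, glmQLFit, glmQLFTest), in 1 model with 4 group means and 4 residual degrees of freedom. The common biological coefficient of variation was 0.244. P-values were adjusted by Benjamini and Hochberg over 15310 genes, with a threshold of 0.05. Symbols were matched for 24942 of 25006 identifiers. Floors cover counting error only, while standard errors come from the edgeR fit and include the spread between libraries. Tests were tried on simulated data first. The members and the 15 lists beside them were chosen with earlier results of these data known. All members are named. Of each list the first gene and up to 3 called genes with the largest change per comparison are named, with the 5 genes most like the members. Some items that this rule names are not reported here. Alternatives were RLE and total-count scaling, DESeq2 1.42.0, limma-voom (limma 3.58.1), no filter, fits of 2 groups, each library left out, and the cell line as a block.

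The titles show that each line was grown in both hosts, which pairs the libraries of a line. Across 15310 genes the difference between the lines of a group correlated between hosts with r of 0.08 for wild type and -0.38 for knockout. Ratios used counts per kilobase with 0.5 count added.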

Additional observations from a re-analysis of the deposited data

How the results depend on the processing

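All 10 members had positive host differences, and 9 positive and 1 negative knockout differences in Balb/c, under every setting tried. Fitting the line as a replicate block left 2073 genes past the threshold in the host comparison of wild-type tumors in place of 4825, 2878 in that of knockout tumors in place of 4757, and 0 in the interaction. Besides the calls given with the results, it changed no other call of a member. Pairing clone 54 with clone 69 across hosts, an alternative chosen after seeing the data, gave 5436 and 307 genes. The ratio differences with the block were the same (1.27, 2.11, 0.82 and 0.63 on the log2 scale) but could not pass. No paired analysis was possible because the wild-type and knockout groups of a host share no line, for the knockout comparisons.

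Over all genes, the knockout comparison in NSG gave 2 calls, 340 with DESeq2, 3 with total counts, 1 with limma-voom, 133 without a filter and 1 with only the 2 groups. In Balb/c it gave 27, against 94 with RLE, 2144 with DESeq2, 1774 without a filter and 0 with only the 2 groups. The interaction gave 974 with DESeq2 and 674 without a filter, and the host comparison of knockout tumors 2450 with only the 2 groups. The members called for the knockout in Balb/c were 2 with DESeq2 and 1 without a filter. The cause of these moves was not tested.

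Signs turned for values near 0. With total counts the NSG knockout value was 0.0390 for H2-D1 and 0.0477 for Psmb8. The interaction of Tap1 was -0.0476 with RLE, -0.0475 with DESeq2 and -0.0376 without a filter. Leaving out 1 library, NSG knockout values ranged from -0.20 to 0.11 for H2-D1, -0.60 to 0.19 for B2m, -0.12 to 0.44 for Tap1, -0.13 to 0.0504 for Psmb8, -0.31 to 0.0399 for Nlrc5 and -1.13 to 0.0597 for Fas. The interaction ranged from -0.24 to 0.32 for Tap1 and from -0.00398 to 0.31 for Tapbp, and the host value of Calr in knockout tumors from -0.0931 to 0.60.

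Leaving out 1 library, members called ranged from 3 to 8 and 8 to 10 for the host in wild-type and knockout tumors, 0 to 0 and 0 to 6 for the knockout in NSG and Balb/c, and 0 to 2 for the interaction. Over all genes the ranges were 858 to 6361, 2461 to 4640, 0 to 1, 0 to 3886 and 0 to 2370. The ratio differences ranged from 1.20 to 1.33 for Psmb8/Psmb5, 1.98 to 2.21 for Psmb9/Psmb6, 0.61 to 1.02 for Psmb10/Psmb7, 0.56 to 0.70 for H2-K1/B2m and 0.11 to 0.28 for H2-D1/B2m. Psmb10/Psmb7 had an adjusted p of 0.0714 without any of the 4 NSG libraries. Library totals gave a floor of 0.159 to 0.321 CPM at 3 counts, far below the level of every member.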
